A study of Mus musculus with 12 samples.

Results

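The genes described here encode the enzymes and transporters of glycolysis and the core of the hypoxia response. They were listed by symbol: 33 mouse genes, from the hexose transporters through the glycolytic enzymes to lactate export, with the HIF hydroxylases and a few known hypoxia targets. A gene was counted where a probe set of the array named it alone, which held for 31 of the 33 among 18820 genes named in that way in the whole series. Gpi1 and Eno1 had no such probe set and are named only. Where a gene had several probe sets, the one with the highest mean log2 intensity over the 12 arrays stood for it.

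The cells were EML1, a haematopoietic progenitor line derived from bone marrow of male BDF1 mice by infection with the retroviral vector LRARalpha403SN, so every group carries that vector. They had been infected with TEL-AML1 in the lentiviral vector pWPI or with the empty pWPI vector. TEL-AML1 joins the transcription factors ETV6 and RUNX1 in 1 protein, known from B-cell precursor leukaemia of childhood. There were 6 groups of 2 arrays, each vector being profiled untreated, at day 5 and at day 7 of IL7 (10 ng/ml) and FLT3L (80 ng/ml), cytokines of early lymphoid growth. Untreated cells were kept in IMDM with horse serum and medium conditioned by BHK/MKL cells. For B-cell differentiation, the culture protocol in the labels describes plating on OP9 mouse stromal cells in another medium with fetal bovine serum, the cytokines and beta-mercaptoethanol. The sample titles name the cytokines alone, so a difference between treated and untreated cells cannot be told apart from one of medium, serum or stroma. They name no separate infections with a vector either. A difference between the vectors therefore cannot be told apart from another difference between the infected cell populations. The labels do not say whether the replicates were separate cultures, and p-values therefore cover only array-to-array spread within these groups, possibly technical.

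Glycolysis splits glucose into pyruvate: hexokinases trap the sugar, phosphofructokinase commits it, and the lower enzymes recover ATP before pyruvate is reduced to lactate or enters mitochondria. HIF-1, a dimer whose oxygen-sensitive subunit is encoded by Hif1a, switches on many of these genes when oxygen is low, and the prolyl hydroxylases encoded by the Egln genes mark that subunit for destruction when oxygen is present. Haematopoietic stem and progenitor cells are known for a strong reliance on glycolysis and for HIF activity in the marrow.

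HIF binds DNA at a short core, and the starts of the genes on which the results turn are shown to let that core be seen in place. The windows are the RefSeq promoters of GRCm38.p6, 250 bases before to 50 after the start, on the strand of the gene. Capitals mark the letters ACGTG or GCGTG read on either strand.
Hk3 (hexokinase, chr13:55021336-55021635, minus strand): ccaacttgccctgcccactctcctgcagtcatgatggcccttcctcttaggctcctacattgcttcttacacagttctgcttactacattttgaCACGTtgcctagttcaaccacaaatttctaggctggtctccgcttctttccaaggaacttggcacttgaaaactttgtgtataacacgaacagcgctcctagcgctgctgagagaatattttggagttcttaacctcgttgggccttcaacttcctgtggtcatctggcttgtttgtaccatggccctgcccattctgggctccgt
Pfkl (phosphofructokinase, chr10:78009758-78010057, minus strand): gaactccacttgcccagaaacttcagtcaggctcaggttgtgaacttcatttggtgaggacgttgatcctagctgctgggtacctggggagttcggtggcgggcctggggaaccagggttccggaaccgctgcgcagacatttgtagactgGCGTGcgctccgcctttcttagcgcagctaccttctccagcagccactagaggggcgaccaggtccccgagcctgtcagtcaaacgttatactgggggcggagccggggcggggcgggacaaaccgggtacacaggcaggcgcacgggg
Pfkp (phosphofructokinase, chr13:6648722-6649021, minus strand): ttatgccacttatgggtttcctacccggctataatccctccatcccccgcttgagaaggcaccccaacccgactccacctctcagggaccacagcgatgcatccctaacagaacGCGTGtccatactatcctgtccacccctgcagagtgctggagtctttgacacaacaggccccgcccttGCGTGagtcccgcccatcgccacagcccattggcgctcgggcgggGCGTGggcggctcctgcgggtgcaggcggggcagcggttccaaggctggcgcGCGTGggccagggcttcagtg
Pgk1 (phosphoglycerate kinase, chrX:106186850-106187149, plus strand): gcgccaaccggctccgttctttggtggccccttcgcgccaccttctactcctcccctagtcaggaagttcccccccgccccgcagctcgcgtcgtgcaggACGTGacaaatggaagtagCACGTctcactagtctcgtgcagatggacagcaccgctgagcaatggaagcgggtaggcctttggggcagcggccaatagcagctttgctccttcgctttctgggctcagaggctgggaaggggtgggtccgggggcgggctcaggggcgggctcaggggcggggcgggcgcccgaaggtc
Egln3 (HIF prolyl hydroxylase, chr12:54203825-54204124, minus strand): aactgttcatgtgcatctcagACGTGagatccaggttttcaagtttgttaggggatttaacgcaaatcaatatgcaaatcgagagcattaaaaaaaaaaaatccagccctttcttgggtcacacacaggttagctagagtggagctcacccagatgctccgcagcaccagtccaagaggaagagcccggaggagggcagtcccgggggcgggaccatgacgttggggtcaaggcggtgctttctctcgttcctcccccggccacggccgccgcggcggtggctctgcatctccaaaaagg

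These letters stood in each of the windows shown, at 4 places in that of Pfkp, at 2 in that of Pgk1 and at 1 in those of Hk3, Pfkl and Egln3. In Pfkl and Pfkp all were GCGTG. Among the listed genes, 32 had a window and 29 had a match in at least 1 of theirs, against 46.7% of 27025 genes. By window, 37 of 46 matched, against 43.8% of 32851 windows of the same length. The letters CACGTG, which contain ACGTG, stood in 6 of the 46 windows and in 7.2% of all. The windows were not matched for base composition, and a gene with several windows had more chances of a match. The list was drawn up with known HIF targets in it, and a match is not a measured binding site.

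Levels are the deposited linear intensities and are compared for a gene between arrays only. Tests were run on log2(intensity + 16) over 12345 genes brighter on average than 40% of all probe sets (an intensity of 59.9). A gene counted as changed at an adjusted p (limma, Benjamini-Hochberg over all of those genes) under 0.05, and log2 differences are given with their SE. Of the 31 genes, 30 were tested. Aldoc, an aldolase, lay under the limit, with intensities of 49.1 to 63.4. Array medians ranged over 68.1 to 72.9, and replicate arrays correlated at 0.981 to 0.997 across the genes tested. In bulk RNA, fewer cells of a type and less RNA per cell cannot be told apart.

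The labelled cell type was checked by 9 haematopoietic progenitor markers, of which 8 were on the array and above the filter. Their summed intensity was 9558 to 11120 on all arrays. B lineage markers (9 listed, 7 with a probe set, 6 above the filter) summed to 424 to 436 untreated, 475 to 569 at day 5 and 439 to 545 at day 7 with TEL-AML1. With the empty vector they summed to 423 to 436, 567 to 637 and 462 to 520.1 in that order. The higher sums at day 5 were not shared by all B lineage markers. With the empty vector, 2 of the 6 rose and 4 fell (median log2 difference -0.03, largest 1.93). Of these 1 passed the test described above, beside 15.5% of all genes. With TEL-AML1, 4 rose and 2 fell (median 0.03, largest 1.14) and 0 passed, beside 1.6% of all genes. Stroma markers, collagens and other genes that OP9 cells would bring, had 19 of 20 with a probe set and 13 above the filter. Their sums were 2201 to 2375 untreated, 3519 to 7702 at day 5 and 2247 to 4041 at day 7 with TEL-AML1. With the empty vector, they were 1922 to 1973 untreated, 6794 to 9059 at day 5 and 2417 to 5445 at day 7. No marker was at 0, since the lowest intensity in the table was 15.2. Erythroid markers, 7 of 10 with a probe set, summed to 1511 to 2197 over the TEL-AML1 arrays and 1115 to 1255 over the empty vector arrays.

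Averaged over the untreated, day 5 and day 7 cells, the TEL-AML1 arrays differed from the empty vector arrays in 11 of the 30 genes, 8 higher and 3 lower. The 3 phosphofructokinase genes rose by 0.27 to 0.45 on the log2 scale, and the HIF hydroxylase Egln3 fell by 0.95. Of the 8 higher, the hexokinase Hk3 had all 6 empty vector arrays under the filter limit, so that it could pass the filter only by being higher with TEL-AML1. Without it 10 of 29 differed, 7 higher and 3 lower. Over all genes tested, 22.6% differed in this comparison (9.82% higher and 12.8% lower), and the median difference was 0.03 for the 30 genes, 0.02 without Hk3 and -0.01 for all. The bulk enzymes of the pathway, Aldoa, Tpi1, Gapdh, Pgk1, Pgam1, Pkm and Ldha, did not pass the test in any condition.

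**Figure D1:**
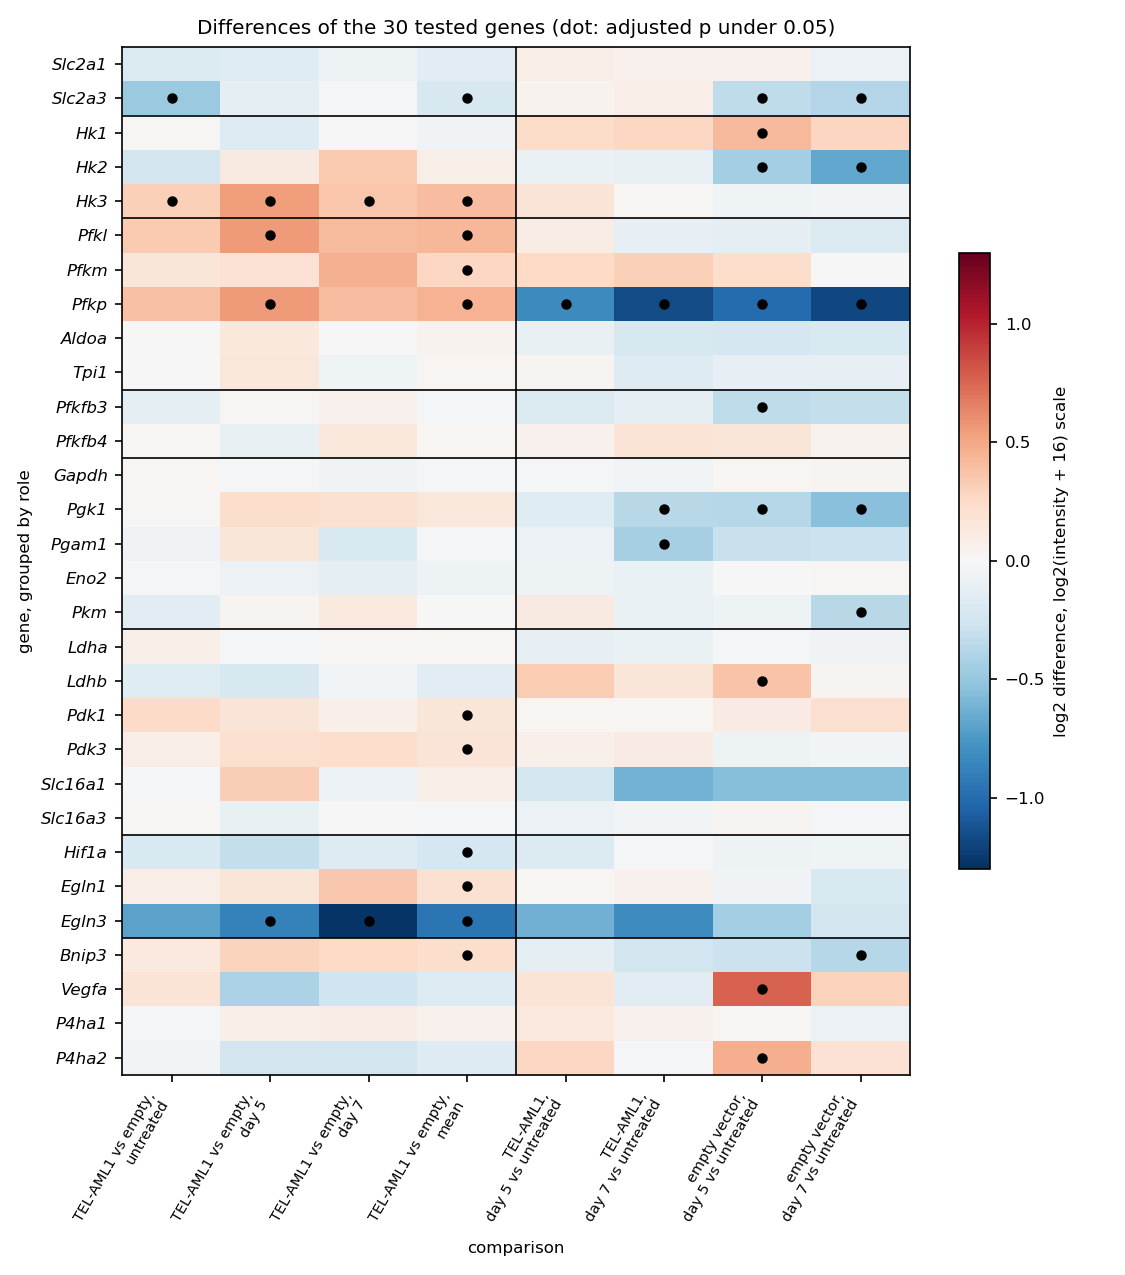
Log2 differences of the 30 tested genes (rows, grouped by role) in 8 comparisons (columns), TEL-AML1 over empty vector in the first 4 and treated over untreated in the last 4. Red is higher and blue is lower in the group named first, and dots mark an adjusted p under 0.05. The row of Egln3 is blue and that of Hk3 red in each of the first 4 columns, and the row of Pfkp is blue in the 4 treatment columns.

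Egln3 encodes a prolyl hydroxylase of HIF subunits and is itself a known target of HIF. Its intensity with TEL-AML1 was 1087 and 1125 in untreated cells, 571 and 886 at day 5 and 495 and 780.0 at day 7. With the empty vector it was 1767 and 1830, 1134 and 1546, and 1552 and 1496 in the same order. In each condition both TEL-AML1 arrays lay below both empty vector arrays, and the 6 lay below all 6. The mean difference was -0.95 ± 0.13 (adjusted p = 0.000455), a ratio of 0.518. By condition it was -0.69 ± 0.23 in untreated cells, which did not pass the test (adjusted p = 0.105), -0.88 ± 0.23 at day 5 (adjusted p = 0.0448) and -1.27 ± 0.23 at day 7 (adjusted p = 0.00563). The value in untreated cells passed with replicate pairs as a block in each condition. The call at day 5 was lost without TEL-AML1 day 5 array 1 (adjusted p = 0.228) or without empty vector day 5 array 2 (0.262). It was also lost without any of the 4 untreated arrays (0.0751 to 0.0762), either empty vector day 7 array (0.0513) or array 1 of day 5 in both vectors (0.136). It was lost too with no filter (0.0763), with a trended and robust variance (0.0684), with array weights (0.0821) and in a fit of the compared groups alone (0.138).

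Hif1a, the oxygen-sensitive subunit of HIF-1, had 827 and 921 in untreated, 758 and 783 in day 5 and 901 and 811 in day 7 cells with TEL-AML1. Empty vector arrays had 953 and 1058, 918 and 1001, and 1031 and 904. Within each condition the TEL-AML1 arrays lay below those of the empty vector, though over all conditions the 2 sets overlapped. The mean difference was -0.23 ± 0.06 (adjusted p = 0.0161), a ratio of 0.854, and no single condition passed (adjusted p = 0.0974 at day 5). That of day 5 passed with the replicate block. The mean call was lost without empty vector untreated array 2 (adjusted p = 0.056) or TEL-AML1 untreated array 1 (0.0567). Egln1, the main HIF prolyl hydroxylase, had 78.9 and 83.5 in untreated, 85.4 and 79.7 in day 5 and 91.9 and 79.1 in day 7 cells with TEL-AML1. Empty vector arrays had 72.8 and 77.8, 80.7 and 64.7, and 59.3 and 67.7. These dim arrays overlapped at day 5 and over all conditions, and they differed in the opposite direction to Egln3, by 0.20 ± 0.06 (adjusted p = 0.037). Leaving out any of 9 arrays, all but empty vector day 5 array 1, empty vector day 7 array 2 and TEL-AML1 day 7 array 2, ended that call (adjusted p up to 0.104), as did centring the arrays on their medians (0.0559). The day 7 difference of Egln1 passed with the replicate block.

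**Figure D2:**
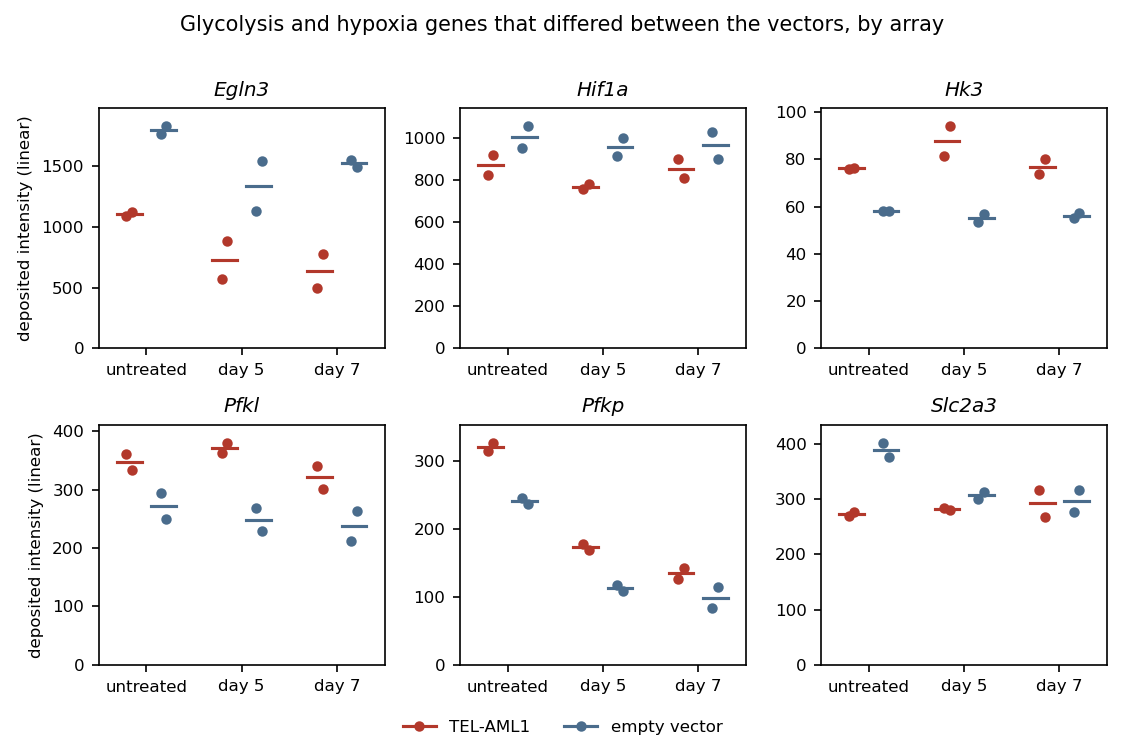
Deposited linear intensity of 6 genes on each of the 12 arrays (points) with group means (bars), for TEL-AML1 (red) and the empty vector (blue) in untreated, day 5 and day 7 cells. The TEL-AML1 arrays of Egln3 (495 to 1125) sit below all of the empty vector arrays (1134 to 1830), and those of Hk3 (73.8 to 93.9) sit above them (53.5 to 58.3).

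Hexokinases phosphorylate glucose. Hk3, an isoform known from myeloid cells, had 75.9 and 76.4 in untreated, 81.2 and 93.9 in day 5 and 73.8 and 79.9 in day 7 cells with TEL-AML1. The empty vector arrays had 58.3 and 58.0, 53.5 and 56.7, and 55.1 and 57.3. The 6 TEL-AML1 arrays lay above the 6 of the empty vector in a dim range. All of the empty vector arrays lay under the filter limit of 59.9, so the call of Hk3 in the filtered fit is not read as support. In the fit of all 18820 genes with no filter, the mean difference was 0.41 ± 0.04 (adjusted p = 0.000101). By condition it was there 0.31 ± 0.07 in untreated cells (adjusted p = 0.0249), 0.54 ± 0.07 at day 5 (0.00226) and 0.36 ± 0.07 at day 7 (0.0116). In the filtered fit the untreated call was lost without any 1 of its 4 arrays (adjusted p 0.167 to 0.19) or with a pseudocount of 64 (0.0632). The day 7 call was lost without TEL-AML1 day 7 array 2 (0.11) or empty vector day 7 array 1 (0.0586), and those of day 5 and day 7 in a fit of the compared groups alone (0.0624 and 0.114). Hk1, the widespread isoform, and Hk2, the inducible isoform bound to mitochondria, differed by -0.05 ± 0.05 (adjusted p = 0.554) and 0.07 ± 0.07 (adjusted p = 0.5) in the mean. Neither passed in any condition by this fit, while Hk2 passed at day 7 with replicate pairs as a block in each condition (adjusted p = 0.0263).

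Of the hexose transporters, Slc2a3 (GLUT3) had 270.0 and 277 in untreated, 283 and 281 in day 5 and 316 and 268 in day 7 cells with TEL-AML1. The empty vector arrays had 402 and 376, 300.5 and 313, and 276 and 317. The arrays were farthest apart in untreated cells, and at day 7 the arrays of the 2 vectors overlapped. The untreated difference was -0.48 ± 0.09 (adjusted p = 0.00851), a ratio of 0.715. Those of day 5 and day 7 were -0.12 ± 0.09 and -0.02 ± 0.09 (adjusted p = 0.535 and 0.914). The mean of the 3 was -0.21 ± 0.05 (adjusted p = 0.0193). The untreated call was lost without empty vector untreated array 1 (adjusted p = 0.0925), TEL-AML1 untreated array 1 (0.0763) or TEL-AML1 untreated array 2 (0.0613). The mean call was lost without the first or second of these (0.0652 and 0.0579) or TEL-AML1 day 7 array 2 (0.0515), or without array 1 of day 5 in both vectors (0.0557). Slc2a1 (GLUT1), the main transporter of blood cells, had 697 to 832 with TEL-AML1 and 737 to 983 with the empty vector and did not pass in any condition (mean -0.14 ± 0.08, adjusted p = 0.231).

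Phosphofructokinase, the committing step, is a tetramer of liver, muscle and platelet type subunits, encoded by Pfkl, Pfkm and Pfkp. Pfkl had 361 and 333 in untreated, 362 and 380.3 in day 5 and 341 and 301 in day 7 cells with TEL-AML1. Those of the empty vector had 295 and 250.2, 268 and 228, and 212 and 263. All 6 TEL-AML1 arrays lay above all 6 empty vector arrays, and the mean difference was 0.43 ± 0.07 (adjusted p = 0.00129). Pfkl passed at day 5 (0.55 ± 0.12, adjusted p = 0.0216), a call lost without TEL-AML1 day 5 array 1 or 2 or empty vector day 5 array 2 (adjusted p 0.0689 to 0.151). That call was lost as well with array weights (0.0526), in a fit of the compared groups alone (0.0684) and without array 1 of day 5 in both vectors (0.0782).

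Pfkp had 314 and 326 in untreated, 178 and 169 in day 5 and 126 and 143 in day 7 cells with TEL-AML1. The empty vector arrays had 246 and 237, 117 and 108, and 83.0 and 115. TEL-AML1 arrays were higher in each condition, while the fall with treatment, described below, was shared by both vectors. The mean difference was 0.45 ± 0.07 (adjusted p = 0.000823), a ratio of 1.36, and that of day 5 was 0.56 ± 0.12 (adjusted p = 0.0176). The day 5 call was lost without TEL-AML1 day 5 array 1 or 2 or empty vector day 5 array 2 (adjusted p 0.0585 to 0.111) or array 1 of day 5 in both vectors (0.139), while with the replicate block Pfkp passed in the untreated cells and at day 7 as well. Pfkm had 244 and 256 in untreated, 333 and 275 in day 5 and 329.6 and 299.8 in day 7 cells with TEL-AML1. Empty vector arrays had 227 and 219, 279 and 248, and 193 and 261. The arrays of the 2 vectors overlapped at day 5 and stood apart in the other conditions. Its mean difference was 0.27 ± 0.08 (adjusted p = 0.0303), lost without any untreated array, empty vector day 5 array 2, TEL-AML1 day 5 array 1, TEL-AML1 day 7 array 1 or array 1 of day 5 in both vectors (adjusted p 0.0615 to 0.0842).

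The enzymes that make the activator of phosphofructokinase, Pfkfb3 and Pfkfb4, did not pass between the vectors in any condition. Pfkfb4 had 103 to 127 on the TEL-AML1 arrays and 104 to 119 on those of the empty vector. In the lower part of the pathway, 5 of 6 listed genes were tested and 0 differed between the vectors, with 0 of them called in any single condition. Gapdh ranged from 5853 to 6171 over the 12 arrays. All of its 17 probe sets stayed within -0.13 to 0.09 of 0 on the log2 scale in the vector comparisons, and near-identical pseudogene copies of this gene make its probe sets hard to assign. Aldoa, Tpi1 and Ldha had mean differences whose adjusted p did not pass, and their intensities ran from 1976 to 2609, 1158 to 1417 and 3212 to 3594.

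At the fate of pyruvate, the kinases Pdk1 and Pdk3, which switch off pyruvate dehydrogenase, were slightly higher with TEL-AML1. Pdk3 had 882 and 921 in untreated, 958 and 929.9 in day 5 and 931 and 1018 in day 7 cells with TEL-AML1. Empty vector arrays had 843 and 859, 830.3 and 799, and 840.5 and 819. The 6 arrays of each vector did not overlap, and the mean difference was 0.17 ± 0.04 (adjusted p = 0.0134). Pdk1 had 372 and 373, 356 and 403, and 367 and 392 with TEL-AML1 and 318 and 305, 341 and 331, and 380.3 and 345 with the empty vector, in the same order. Its arrays overlapped at day 7, and it differed by 0.16 ± 0.05 (adjusted p = 0.0372). Pdk3 lost its call without TEL-AML1 untreated array 2 (adjusted p = 0.0515), and Pdk1 without any untreated array, either empty vector day 5 array, TEL-AML1 day 5 array 2 or array 2 of day 7 in either vector (0.0518 to 0.0998). The call of Pdk1 was also lost with the stroma covariate described below (0.13, adjusted p = 0.0828) and with 1 replicate block over all arrays (0.0505). The lactate dehydrogenase subunits Ldha and Ldhb and the lactate transporters Slc16a1 (MCT1) and Slc16a3 (MCT4) did not pass. Slc16a3 had 64.4 to 76.1 with TEL-AML1 and 64.03 to 82.8 with the empty vector.

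Among the other hypoxia targets, Bnip3, a mitophagy receptor, had 274 and 315 in untreated, 266 and 269 in day 5 and 224 and 269 in day 7 cells with TEL-AML1. Empty vector arrays had 246 and 290.4, 226 and 208, and 209 and 197. The vectors overlapped in untreated cells and stood apart at day 5 and day 7, and the mean difference was 0.22 ± 0.06 (adjusted p = 0.0287). Its other probe set gave -0.032 (adjusted p = 0.86), and the mean of both probe sets 0.10 (0.294), so the difference rests on 1 probe set. Whether that probe set reads Bnip3 itself or a near-identical copy elsewhere was not tested. Its call was also lost without TEL-AML1 untreated array 2, either TEL-AML1 day 5 array, TEL-AML1 day 7 array 2, empty vector untreated array 1, empty vector day 5 array 2 or empty vector day 7 array 2 (0.0519 to 0.0934), with array weights (0.0607) or without array 1 of day 5 in both vectors (0.0635). Vegfa, the angiogenic growth factor, and P4ha1 and P4ha2, subunits of collagen prolyl hydroxylase, did not pass between the vectors in the mean. P4ha1 had 259.5 to 333 with TEL-AML1 and 245 to 309.9 with the empty vector.

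Arrays of all 3 conditions lay on opposite sides without overlap for 4 of the 30 genes, Hk3, Pfkl and Pdk3 higher and Egln3 lower with TEL-AML1, of which Hk3 passed the filter only through its TEL-AML1 arrays. Over all genes tested this held for 9.46%, with 3.52% higher and 5.94% lower.

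Taken condition by condition, fewer genes passed. In untreated cells 2 of 30 did, Hk3 higher and Slc2a3 lower, where 8.88% of all genes differed (2.72% higher and 6.16% lower). At day 5 it was 4 of 30, Hk3, Pfkl and Pfkp higher and Egln3 lower, against 7.28% of all genes (3.01% higher and 4.27% lower). At day 7 it was 2 of 30, Hk3 higher and Egln3 lower, against 11.3% of all genes (5.24% higher and 6.01% lower). Leaving out Hk3, it was 1, 3 and 1 of 29. The median differences of the 30 genes were 0.01, 0.06 and 0.02, against -0.01, -0.00 and -0.03 over all genes tested. With replicate pairs as a block in each condition, a pairing that the main tests did not use, 4, 6 and 7 genes passed in untreated, day 5 and day 7 cells and 15 in the mean. The share of all genes tested that passed grew as well with that block, to 12.1%, 14.8%, 17.9% and 31.8% in that order. Those that gained a call in this way were Pfkp and Egln3 in untreated cells, Hif1a and Vegfa at day 5, and Hk2, Pfkl, Pfkm, Pfkp and Egln1 at day 7. In the mean they were Slc2a1, Pgk1, Vegfa and P4ha2. Leaving out single arrays moved these counts. Untreated, 0 remained called without empty vector array 1 or either TEL-AML1 array and 1 without empty vector array 2. At day 5, 1 gene was called without empty vector array 2 and 2 without TEL-AML1 array 2. At day 7, 8 were called without empty vector array 2 and 1 without TEL-AML1 array 2. In the mean, 6 or 7 were called without any untreated array or empty vector day 5 array 2.

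Treatment with IL7 and FLT3L came with lower levels of several glycolytic genes, and Pfkp fell in both vectors at both times. In TEL-AML1 cells, 1 of 30 genes was lower at day 5, against 1.6% of all genes (1.17% higher and 0.429% lower). At day 7 it was 3 of 30, all lower, against 7.81% (4.74% higher and 3.07% lower). In empty vector cells, 9 of 30 differed at day 5, 4 higher and 5 lower, against 15.5% of all genes (8.37% higher and 7.15% lower). At day 7 there were 6 of 30, all lower, against 15.5% of all genes (6.29% higher and 9.18% lower). Median differences of the 30 genes were 0.02 and -0.06 at day 5 and day 7 in TEL-AML1 cells (0.01 and -0.00 over all genes tested). They were -0.06 and -0.07 in empty vector cells (-0.01 and 0.01 over all genes tested). The day 5 and day 7 comparisons of a vector share its untreated arrays.

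**Figure D3:**
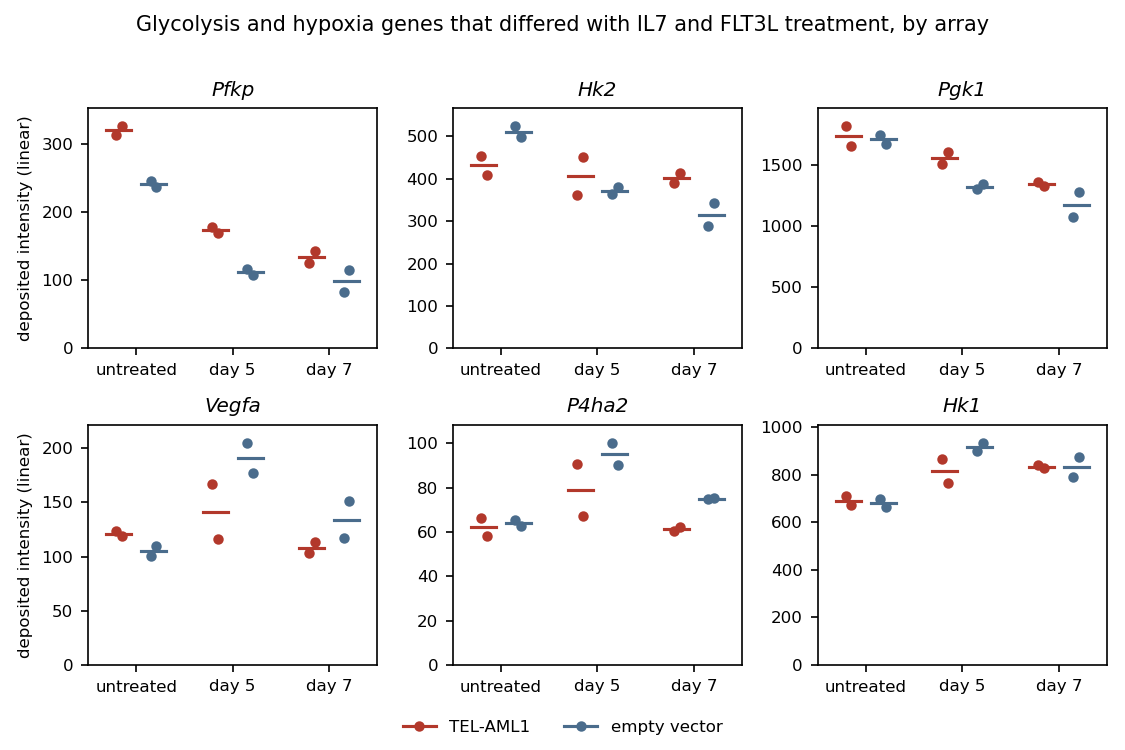
Deposited linear intensity of 6 genes on each of the 12 arrays (points) with group means (bars), for TEL-AML1 (red) and the empty vector (blue) in untreated, day 5 and day 7 cells. Pfkp is lower at day 5 and day 7 than untreated in both vectors, while Vegfa and P4ha2 are highest at day 5 in empty vector cells.

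Pfkp, whose values by array are given above, differed from untreated cells by -0.83 ± 0.12 at day 5 (adjusted p = 0.00492) and by -1.16 ± 0.12 at day 7 (adjusted p = 0.000286) in TEL-AML1 cells. In empty vector cells it differed by -1.0 ± 0.12 (adjusted p = 0.00102) and -1.18 ± 0.12 (adjusted p = 0.000344). Every treated array lay below every untreated array of the same vector. The call in TEL-AML1 cells at day 5 was lost without TEL-AML1 untreated array 1 (adjusted p = 0.0519) or 2 (0.0699), or array 1 of day 5 in both vectors (0.0633), and each of these left 0 genes called there. With the level of the stroma markers as a covariate, the fall of Pfkp was -1.43 in empty vector cells at day 5 (adjusted p = 0.0041) and -1.38 at day 7. The other phosphofructokinase genes, Pfkl and Pfkm, did not pass in any treatment comparison.

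Pgk1, phosphoglycerate kinase, the first ATP-yielding step, had 1814 and 1653 in untreated, 1507 and 1602 in day 5 and 1360 and 1325 in day 7 cells with TEL-AML1. The empty vector arrays had 1745 and 1672, 1300 and 1340, and 1073 and 1275. The day 7 arrays lay below the untreated arrays in both vectors. At day 7 the difference was -0.36 ± 0.09 with TEL-AML1 (adjusted p = 0.0385) and -0.54 ± 0.09 with the empty vector (adjusted p = 0.00581), and at day 5 with the empty vector it was -0.37 ± 0.09 (adjusted p = 0.0249). In TEL-AML1 cells the call was lost without any untreated array of either vector or either TEL-AML1 day 7 array (adjusted p 0.0678 to 0.254). With the empty vector the day 7 call was lost without untreated array 1 (0.0521), and the day 5 call without any 1 of its 4 arrays (0.0783 to 0.135). The day 7 call was lost in TEL-AML1 cells with quantile normalization (0.0538) and without array 1 of day 5 in both vectors (0.0566), and in empty vector cells in a fit of the compared groups alone (0.0625). The other 2 probe sets of Pgk1, which hold identical values, gave -0.47 and -0.53 at day 7 in TEL-AML1 and empty vector cells.

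Other lower enzymes passed in 1 vector each. Pgam1, phosphoglycerate mutase, had 1056 and 1112 at day 7 and 1472 and 1461 untreated in TEL-AML1 cells, without overlap. That difference was -0.43 ± 0.11 (adjusted p = 0.0425), and in empty vector cells it was -0.28 ± 0.11. Pkm, pyruvate kinase, differed by -0.08 ± 0.10 at day 7 with TEL-AML1 and fell by 0.36 ± 0.10 with the empty vector (adjusted p = 0.039). There it had 1232 and 1355 at day 7 and 1810 and 1521 untreated. The call of Pgam1 was lost without any 1 of its 4 arrays (adjusted p 0.111 to 0.209) or without any empty vector untreated or day 5 array (0.0538 to 0.0717). That of Pkm was lost without either empty vector untreated array (0.253 and 0.0619), empty vector day 7 array 1 (0.187), or any TEL-AML1 untreated or day 7 array (0.0505 to 0.0555). Quantile normalization (0.0514), no filter (0.0531) and leaving out array 1 of day 5 in both vectors (0.0537) ended the call of Pgam1. That of Pkm was ended by quantile normalization (0.0893), array weights (0.101), a fit of the compared groups alone (0.128), the stroma covariate (0.0615), the mean of its probe sets (0.0771) and leaving out array 1 of day 5 in both vectors (0.0532). In a fit over probe sets, that of Pkm used here gave an adjusted p of 0.0546 and the other -0.31 (0.213) in empty vector cells. The one used for Pgam1 gave 0.0623, and its others -0.44 (0.0454) and -0.50 (0.0504) in TEL-AML1 cells. Both genes, like Tpi1, Gapdh, Pgk1 and Bnip3, had several probe sets, and RNA from near-identical copies could not be separated by these probes.

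Hk2 had 453 and 409.7 in untreated, 363 and 450.3 in day 5 and 390.1 and 413 in day 7 cells with TEL-AML1. The empty vector arrays had 524 and 497, 364 and 379.7, and 288 and 343. The treated TEL-AML1 arrays overlapped the untreated ones, while those of the empty vector lay below them. With TEL-AML1 the differences were -0.09 ± 0.11 at day 5 and -0.10 ± 0.11 at day 7 (adjusted p = 0.809 and 0.71). With the empty vector they were -0.44 ± 0.11 (adjusted p = 0.0271) and -0.67 ± 0.11 (adjusted p = 0.00555). The day 5 call was lost without any 1 of its 4 arrays (adjusted p 0.0871 to 0.143) and the day 7 call without empty vector untreated array 1 (0.0501). That of day 5 was lost too without array 1 of day 5 in both vectors (0.0533).

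Slc2a3, whose array values stand above, differed by 0.04 ± 0.09 at day 5 and 0.08 ± 0.09 at day 7 with TEL-AML1 (adjusted p = 0.914 and 0.701). In empty vector cells it fell by 0.33 ± 0.09 (adjusted p = 0.0404) and by 0.38 ± 0.09 (adjusted p = 0.0248). Its day 5 call was lost without any array of the untreated or day 5 groups of either vector (adjusted p 0.0529 to 0.207), and its day 7 call without either empty vector untreated array or empty vector day 7 array 1 (0.0996 to 0.146). Quantile normalization (0.0797), 1 replicate block over all arrays (0.0542) and leaving out array 1 of day 5 in both vectors (0.133) ended the day 5 call. The stroma covariate (0.0527) and a fit of the compared groups alone (0.0918) ended that of day 7. Pfkfb3 fell by 0.33 ± 0.09 at day 5 in empty vector cells (adjusted p = 0.0413), with 285 and 236 at day 5 and 330.3 and 329 untreated. That call was lost without either empty vector untreated array, empty vector day 5 array 2, or any TEL-AML1 untreated or day 7 array (0.0518 to 0.256), or in a fit of the compared groups alone (0.0888). Bnip3 fell by 0.37 ± 0.11 at day 7 in empty vector cells (adjusted p = 0.0461), with 209 and 197 at day 7 and 246 and 290.4 untreated. Its other probe set gave 0.15 (adjusted p = 0.54), and leaving out any array other than the TEL-AML1 day 7 pair ended the call (0.0503 to 0.3). It was lost with no filter (0.0578), the mean of its probe sets (0.502), array weights (0.106), the compared groups alone (0.101), the stroma covariate (0.0621) and without array 1 of day 5 in both vectors (0.0619).

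The 4 genes that rose at day 5 in empty vector cells were Hk1, Ldhb, Vegfa and P4ha2. In TEL-AML1 cells, Vegfa had 167 and 116 at day 5 and 124 and 119 untreated, and P4ha2 had 90.6 and 67.3 at day 5 and 66.1 and 58.0 untreated. Neither passed there (0.18 ± 0.15 and 0.28 ± 0.11). With the empty vector, Vegfa had 205 and 177 at day 5 and 101 and 110.1 untreated, a difference of 0.77 ± 0.15 (adjusted p = 0.012). P4ha2 had 100.2 and 90.1 at day 5 and 65.4 and 62.8 untreated, a difference of 0.47 ± 0.11 (adjusted p = 0.02). In both, the day 5 arrays lay above the untreated ones, and array 1, the array with more stroma signal, was the higher. Hk1 had 899 and 935 at day 5 and 700.2 and 665 untreated (0.42 ± 0.08, adjusted p = 0.0132). Ldhb had 109 and 97.2 at day 5 and 75.9 and 75.2 untreated (0.38 ± 0.10, adjusted p = 0.0299). Array 1 of day 5 was the higher for Ldhb as well, but array 2 was for Hk1. The 4 calls were lost without empty vector untreated array 1 or 2 (adjusted p 0.0606 to 0.16), those of Vegfa, P4ha2 and Ldhb without empty vector day 5 array 1 (0.0519 to 0.115), and those of Hk1 and Ldhb without empty vector day 5 array 2 (0.0575 and 0.055). Ldhb was not called with quantile normalization (0.0642) or with arrays centred on their medians (0.0697).

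For Vegfa and P4ha2 array 1 was also the higher of the TEL-AML1 day 5 pair, and it held the higher stroma sum of that group, 7702 against 3519 on array 2. In empty vector cells the stroma sums were 1922 to 1973 untreated and 6794 to 9059 at day 5, without overlap. A stroma covariate thus largely follows the day 5 comparison, and a call lost with it cannot tell stroma from treatment. With the stroma level as a covariate, 1 of the 9 calls at day 5 in empty vector cells held, that of Pfkp. The differences of Vegfa, P4ha2, Hk1 and Ldhb were then 0.10 (adjusted p = 0.734), 0.15 (0.623), 0.21 (0.395) and 0.17 (0.581), smaller than without it. The differences of Slc2a3, Hk2, Pfkfb3 and Pgk1 were -0.32 (0.296), -0.42 (0.26), -0.37 (0.235) and -0.45 (0.156). These falls stayed near their size without the covariate or grew, though their calls were lost. At day 7 in empty vector cells 3 of the 6 calls held with the covariate, those of Hk2, Pfkp and Pgk1. Those of Slc2a3, Pkm and Bnip3 were lost, while Slc16a1 was added. Slc2a3, Pkm and Bnip3 then differed by -0.37, -0.38 and -0.41, near their differences without it. Without array 1 of day 5 in both vectors, 5 genes were called at day 5 in empty vector cells, Hk1, Pfkp, Pfkfb3, Vegfa and P4ha2. Stroma markers themselves passed as higher in 12 of 13 at day 5 in empty vector cells, with a median difference of 1.90, where 8.37% of all genes were higher. In TEL-AML1 cells at day 5, 0 of 13 passed, where 1.17% of all genes were higher. All 13 had positive differences there, with a median of 1.16, so the 0 calls do not show that stroma signal stayed level. Whether stromal RNA had a part in the rise of Vegfa, P4ha2, Hk1 and Ldhb was not tested beyond these values.

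Counts of called genes in the treatment comparisons moved with single arrays. In TEL-AML1 cells at day 7, 1 gene was called without any untreated array of either vector or without day 7 array 1. In empty vector cells at day 5 it was 1 without either untreated array and 3 without either day 5 array. At day 7 it was 1 without untreated array 1 and 3 without untreated array 2 or day 7 array 1. Proliferation markers were lower at day 7 than untreated with TEL-AML1 in 5 of 9, where 3.07% of all genes were lower. Their sums were 10159 to 10633 at day 7 and 12584 to 12666 untreated. For the empty vector 1 of 9 was lower, near the 9.18% of all genes, with sums of 11610.2 to 12133 at day 7 and 12992 to 13242 untreated. Whether growth rate had a part in the lower glycolytic genes was not tested.

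Day 7 did not differ from day 5 by this test. In each vector 0 of 30 genes passed by limma, as did 0% of all genes. In TEL-AML1 cells 5 of 30 had an unadjusted p under 0.05. In empty vector cells 4 of 30 did, where 791 of all 12345 genes did. The most positive and most negative differences were 0.15 and -0.40 in TEL-AML1 cells and 0.20 and -0.47 in empty vector cells.

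**Figure D4:**
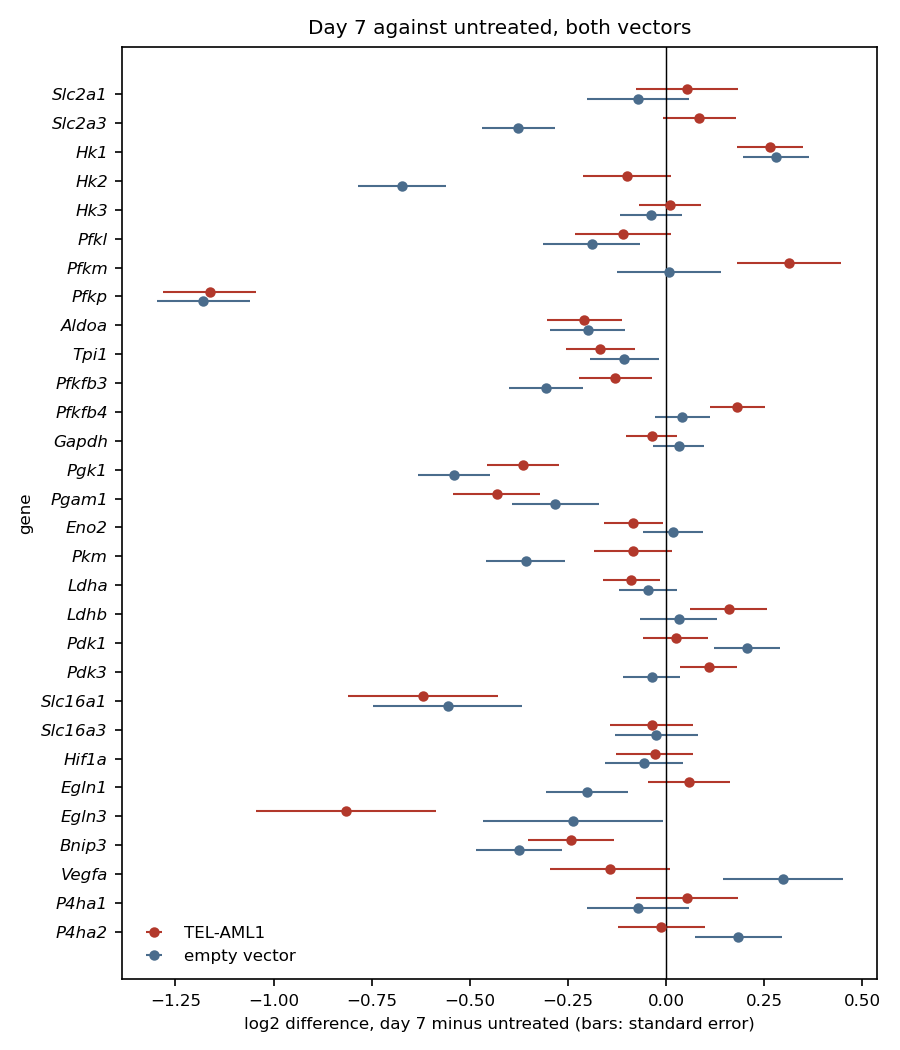
Log2 difference of day 7 from untreated cells for the 30 tested genes, with TEL-AML1 (red) above the empty vector (blue), and bars of 1 SE. The points of Pfkp coincide near -1.2 in both vectors, while those of Hk2 and Slc2a3 stand at -0.10 and 0.08 with TEL-AML1, against -0.67 and -0.38 with the empty vector.

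The response to treatment was compared between the vectors directly. At day 5, 0 of 30 genes passed by limma, against 0.0324% of all genes, and at day 7, 0 of 30, against 0.081%. The response at day 7 was higher in TEL-AML1 than in empty vector cells by 0.46 ± 0.13 for Slc2a3 (adjusted p = 0.339) and by 0.57 ± 0.16 for Hk2 (adjusted p = 0.335), with 95% intervals of 0.17 to 0.75 and 0.22 to 0.93 before adjustment. Neither passed, so the fall of these genes in empty vector cells is not shown to differ from their values with TEL-AML1. For Pfkp the difference of responses at day 7 was 0.02 ± 0.17, with an interval of -0.35 to 0.39. For Egln3 it was -0.58 ± 0.32 (adjusted p = 0.637), and for Vegfa at day 5 it was -0.59 ± 0.22 (adjusted p = 0.609).

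Egln3 and Slc16a1 had large differences with treatment that did not pass. Egln3 differed by -0.81 ± 0.23 at day 7 in TEL-AML1 cells (adjusted p = 0.0573) and by -0.24 ± 0.23 in empty vector cells. Slc16a1, the MCT1 lactate transporter, had 886 and 884 in untreated, 685 and 834 in day 5 and 532 and 612 in day 7 cells with TEL-AML1. The empty vector arrays had 932 and 858, 619 and 585, and 466 and 779. All treated arrays lay below the untreated arrays of their vector, with a wide gap between the empty vector day 7 arrays. The day 7 differences were -0.62 ± 0.19 (adjusted p = 0.0773) with TEL-AML1 and -0.56 ± 0.19 (adjusted p = 0.0739) with the empty vector. The remaining genes, Slc2a1, Pfkfb4, Aldoa, Tpi1, Gapdh, Eno2, Ldha, Slc16a3, P4ha1, Hif1a, Egln1, Pdk1, Pdk3 and Hk3 among them, did not pass in any comparison of treated with untreated cells. Eno2, the enolase of neurons, had 63.1 to 74.1 on the TEL-AML1 arrays and 71.1 to 76.3 on those of the empty vector.

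Genes around the pathway were read from lists of their own. Among 31 tested further HIF targets, 8 were higher and 4 lower with TEL-AML1 in the mean of the conditions, and their median difference was 0.07. That is 12 of 31, where 22.6% of all genes differed (9.82% higher and 12.8% lower). Ndrg1, a stress-induced gene, had 1238 and 1077 in untreated cells with TEL-AML1 and 2682 and 2465 with the empty vector, and differed by -0.83 ± 0.10 in the mean (adjusted p = 0.000133). Plod1 (a collagen lysyl hydroxylase) and Ak4 (a mitochondrial adenylate kinase) were lower too, by -0.45 ± 0.05 and -0.40 ± 0.05. Ampd3 (AMP deaminase), Cxcr4 (a chemokine receptor) and Stc2 (stanniocalcin) were higher, by 1.10 ± 0.13, 0.75 ± 0.10 and 0.73 ± 0.09. Known HIF targets thus lay on both sides, as did the listed genes. Of the treatment comparisons at day 7, 6 of the 31 rose and 2 fell with TEL-AML1, and 6 rose and 4 fell with the empty vector. Over all genes, 4.74% rose and 3.07% fell with TEL-AML1 and 6.29% rose and 9.18% fell with the empty vector. Hmox1, haem oxygenase, fell by 1.14 ± 0.25 with TEL-AML1 (adjusted p = 0.0241) and by 1.73 ± 0.25 with the empty vector (adjusted p = 0.00299). Plod1 rose by 0.66 ± 0.09 with TEL-AML1 and by 1.11 ± 0.09 with the empty vector.

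Of 14 regulators of HIF and glycolysis, 1 was higher and 2 lower with TEL-AML1 in the mean, 3 of 14 beside 22.6% of all genes. Mlx, a partner of the glucose-sensing factors, differed by 0.25 ± 0.06, Arrdc4, an arrestin-like target of those factors, by -0.49 ± 0.15, and Mlxip, a glucose-sensing factor itself, by -0.42 ± 0.07. Mlxip lies on chromosome 5, where 35.9% of 782 tested genes were lower with TEL-AML1 in the mean, against 11.2% of 11563 elsewhere. In untreated cells 28% were lower there, against 4.68% elsewhere. On that chromosome lie 0 of the listed glycolysis and hypoxia genes. Whether the infected cells differed in other ways than the fusion was not tested. Tigar, a phosphatase that opposes phosphofructokinase, fell at day 7 in TEL-AML1 cells (-0.56 ± 0.13, adjusted p = 0.0321) and in empty vector cells (-0.64 ± 0.13, adjusted p = 0.0128).

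Among 12 tested other enzymes of glycolysis and gluconeogenesis, 5 were higher and 0 lower with TEL-AML1 in the mean, with a median difference of 0.13, against 9.82% higher and 12.8% lower over all genes. Fbp2, a fructose bisphosphatase that runs the phosphofructokinase step backwards, had 122 and 141 in untreated cells with TEL-AML1 and 54.1 and 49.3 with the empty vector. All 6 empty vector arrays (45.8 to 54.1) lay under the filter limit, so that it passed the filter only by being higher with TEL-AML1, and its values are those of the fit with no filter. There the mean difference was 0.76 ± 0.05 (adjusted p = 8.44e-06), and in TEL-AML1 cells it fell by 0.72 ± 0.08 at day 7 (adjusted p = 0.00191). Without Fbp2 and Pklr, the pyruvate kinase of liver and red cells, whose empty vector arrays also lay under the limit and which was not called, 4 of 10 of these enzymes were higher and 0 lower. Pck2, the mitochondrial carboxykinase that starts gluconeogenesis, fell at day 7 by 0.69 ± 0.09 with TEL-AML1 and by 0.57 ± 0.09 with the empty vector. Of 9 pentose phosphate genes, 1 was higher and 1 lower in the mean, near the share of all genes. Rpia, which interconverts pentose phosphates, was the higher one (0.74 ± 0.06, adjusted p = 1.28e-05). Of 10 other sugar and lactate transporters, 3 were higher and 1 lower, 4 of 10 beside 22.6% of all genes. Slc16a10, a relative of the lactate transporters known to carry aromatic amino acids, had 283 and 283 untreated with TEL-AML1 and 166 and 161 with the empty vector (mean 0.80 ± 0.04, adjusted p = 7.28e-07).

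Of 26 tested genes of pyruvate entry and the citric acid cycle, 3 fell and 1 rose at day 7 in TEL-AML1 cells, with a median difference of -0.17. In empty vector cells 10 fell and 0 rose, with a median of -0.29. Over all genes, 3.07% fell and 4.74% rose with TEL-AML1, and 9.18% fell and 6.29% rose with the empty vector. Dld, the shared dehydrogenase subunit of pyruvate and oxoglutarate dehydrogenase, fell by 0.56 ± 0.10 with TEL-AML1 (adjusted p = 0.00862) and by 0.70 ± 0.10 with the empty vector (adjusted p = 0.0025). Idh3a, a subunit of isocitrate dehydrogenase, fell by 0.60 ± 0.15 (adjusted p = 0.0441) and by 0.99 ± 0.15 (adjusted p = 0.00417) in the same order. Between the vectors, 3 were higher and 3 lower in the mean, 6 of 26 beside 22.6% of all genes. Pdp1, the phosphatase that switches pyruvate dehydrogenase back on and so opposes Pdk1 and Pdk3, had 228 and 223 in untreated cells with TEL-AML1 and 515 and 509 with the empty vector. Its mean difference was -0.80 ± 0.07 (adjusted p = 2.74e-05). The list's direct test between the responses of the vectors gave 0 calls at day 7.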

How the data were processed

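Gene expression was measured on 12 Affymetrix arrays, 2 for each of 6 groups, and the groups and replicate numbers come from the sample titles. RNA was prepared with TRIzol and RNeasy columns, per the labels' protocols, and hybridised as biotinylated cRNA by the standard Affymetrix procedure. The authors deposited 1 linear intensity per array for each of 35556 probe sets. Background correction, probe summary and normalization are not given in the sources used here, and values were not renormalized. The number of arrays and their signal over background limit the precision.

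Probe sets with 1 gene in the platform annotation (21218, against 1881 with several and 12457 not listed) were used. Values were set to log2(intensity + 16), which understates changes of dim genes. Group means were fitted over all 12 arrays with limma 3.58.1 in R 4.3.3 (lmFit, then eBayes; 6 residual degrees of freedom, 4.22 prior) for 12 comparisons. The procedure was run on simulated data with independent noise on each array. Those data had no shared deviations of same-numbered arrays and no varying stroma signal, so they do not check the tests under either. Promoter letters were searched with Python 3.11.15. A stroma covariate was the mean log2 level of the stroma markers of each array.

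All listed genes were accounted for. Hk3, Fbp2 and Pklr had all empty vector arrays under the filter limit and passed through their TEL-AML1 arrays, so Hk3 and Fbp2 are tested in a fit with no filter. Those called in a comparison were given with the values of its arrays, the others by range or test, and genes of the neighbouring lists were the up to 6 with the smallest adjusted p of a list and comparison. The genes, lists, tests and alternatives were chosen with earlier results of these data known, so none is independent support.

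Whether equal replicate numbers pair arrays was checked by correlating the arrays' deviations from their group means. Between the vectors, same-numbered arrays correlated at 0.433 untreated, 0.542 at day 5 and 0.378 at day 7. Over all 15 pairs of groups the correlation ran from -0.242 to 0.542, with a median of -0.115. Above 0.1 there were 5 pairs, some of them across conditions. The numbers were therefore taken to pair the vectors within each condition, and not the conditions, in an alternative fit. The main tests did not use the pairing.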

Additional observations from a re-analysis of the deposited data

How the results depend on the processing

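Of 38 calls of a gene in a comparison, 7 held under all alternatives: Egln3 at day 7 and in the mean, Pfkl and Pfkp in the mean, and Pfkp at day 5 and day 7 in empty vector cells and at day 7 in TEL-AML1 cells. That of Hk3 in the mean held wherever it was tested, which excludes the filter at the 60th percentile, where the gene was dropped. Since Hk3 passed the main filter only through its TEL-AML1 arrays, that call is not read as support. The other 30 were lost under at least 1, and 765 of 962 recomputed values were still called. Both reversals came from the other probe set of Bnip3, with -0.032 between the vectors in the mean and 0.15 at day 7 in empty vector cells. That alternative, and leaving out array 1 of day 5 in both vectors, were added after seeing the data.

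Counts of called genes moved by over 1.5 times as follows. In untreated cells (2 between the vectors), a filter at the 60th percentile gave 1, array weights 7, the replicate block within each condition 4 and a fit of the compared groups alone 6. At day 5 (4), array weights gave 2, the compared groups alone 1, and the fit without array 1 of day 5 in both vectors 1. At day 7 (2), the filter at the 60th percentile gave 4, the replicate block within each condition 7, the compared groups alone 1 and the stroma covariate 6. In TEL-AML1 cells at day 5 (1), the fit without array 1 of day 5 in both vectors gave 0. At day 7 (3), quantile normalization gave 1, array weights 7 and the compared groups alone 6. In empty vector cells at day 5 (9), the stroma covariate gave 1 and the fit without array 1 of day 5 in both vectors 5, and at day 7 (6) the compared groups alone gave 2. The cause of these shifts was not tested. With the replicate block within each condition, the share of all genes called rose too. It went from 8.88% to 12.1% in untreated cells and from 11.3% to 17.9% at day 7. Under the other alternatives the counts are of the listed genes alone and are not set beside the share of all genes. Of the splits into higher and lower calls, quantile normalization gave 2 to 1 in untreated cells (1 to 1 as reported) and 1 to 5 at day 7 in empty vector cells (0 to 6).

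Leaving out single arrays gave 0 to 3 calls in untreated cells, 1 to 4 at day 5, 1 to 8 at day 7 and 6 to 10 in the mean between the vectors. It gave 0 to 1 at day 5 and 1 to 4 at day 7 in TEL-AML1 cells, and 1 to 11 and 1 to 7 in empty vector cells. A single replicate block over all arrays changed no count by over 1.5 times (3, 4, 2 and 10 between the vectors). Day 7 against day 5 and the differences of responses gave 0 under every alternative run.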
